A study of Mus musculus with 9 samples.

Results

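Cholesterol is made from squalene by a chain of enzymes in the endoplasmic reticulum, and the transcripts of 9 of them are described here in mouse fibroblasts given more or less active miR-378-3p. The members were taken by name, as every probe set that the platform annotation pairs with Fdft1, Sqle, Lss, Cyp51, Msmo1, Nsdhl, Hsd17b7, Sc5d or Dhcr7 and with no other gene. All 9 genes were found among 19938 named genes, on 10 probe sets, and all 9 passed the filter on low values that left 11963 genes for testing.

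NIH-3T3, an established mouse embryonic fibroblast line, was transfected with 25 nM of one of 3 RNAs and profiled 48 hours later on Affymetrix whole-transcript arrays. The groups were a miR-378 mimic, which supplies mmu-miR-378-3p, a miR-378 inhibitor, which blocks it, and the control, a RISC-free siRNA built so that the silencing machinery does not load it. With 3 arrays to a group, every culture received the transfection reagent DharmaFECT 1, and no mimic or inhibitor of another sequence was among the samples, so a response to miR-378-3p and one to such RNAs in general cannot be told apart. The labels speak of triplicates and do not say that each was its own culture, so a p-value here weighs a difference against array-to-array spread that may be technical in origin.

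Squalene synthase (Fdft1) joins farnesyl units into squalene, the first molecule that is committed to sterols. Squalene is then oxidised, folded into lanosterol and trimmed and reduced stepwise into cholesterol. In animal cells the transcripts of the whole chain are raised together by sterol regulatory element binding proteins when sterol in the endoplasmic reticulum is low, and dividing cells need the product for new membranes. MicroRNAs such as miR-378-3p lower transcripts that carry matching sites, and sites in these transcripts were not analysed here.

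Promoter sequences are shown first, because genes that vary together invite a look at the bases they share. RefSeq windows (GRCm38.p6) of 300 bases, 250 before and 50 after a transcription start, were at hand for 7 of the 9 genes. Each letter string was sought on both strands. The box CCAAT, bound by the factor NF-Y, which works beside the sterol regulatory proteins at many of their promoters, was found in a window of all 7 genes and in 37.4% of all 32851 windows. The string TCACNCCAC, a classical core of sterol regulatory elements, was found in 0 of the 7 genes and in 1.24% of all windows. The looser string TCACNNCA, chosen after these windows had been read, was found in 6 of the 7 genes, all but Lss, and in 13.8% of all windows. Dhcr7 had 3 windows and the others 1 each, so the shares of genes and of windows are not on one footing. A match is a description of letters and not evidence of a bound site.

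The stretches just before the start are printed for Cyp51 (chr5:4104698-4104847), Msmo1 (chr8:64733579-64733728) and Sc5d (chr9:42264301-42264450), whose 3 pairwise correlations were the highest of all member pairs, and for Hsd17b7 (chr1:169969243-169969355), whose value with the mimic lay nearest the controls. The stretch of Hsd17b7 stops short of the start, where RefSeq's gene extends further. All 4 genes lie on the minus strand, and capitals mark CCAAT and TCACNNCA on either strand, which overlap by a base in Msmo1.
Cyp51: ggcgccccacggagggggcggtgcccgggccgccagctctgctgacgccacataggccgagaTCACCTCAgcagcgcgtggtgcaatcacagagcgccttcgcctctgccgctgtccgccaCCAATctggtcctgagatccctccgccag
Msmo1: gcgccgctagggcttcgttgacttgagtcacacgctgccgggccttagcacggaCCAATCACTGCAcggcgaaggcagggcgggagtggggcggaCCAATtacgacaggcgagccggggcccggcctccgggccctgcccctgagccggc
Sc5d: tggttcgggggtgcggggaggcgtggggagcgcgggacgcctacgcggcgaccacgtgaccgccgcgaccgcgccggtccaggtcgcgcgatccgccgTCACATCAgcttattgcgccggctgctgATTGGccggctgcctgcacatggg
Hsd17b7: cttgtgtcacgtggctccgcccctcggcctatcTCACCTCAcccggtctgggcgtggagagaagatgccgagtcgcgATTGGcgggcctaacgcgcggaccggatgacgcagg

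Positions count from the base just before the start, which is -1, and name the leftmost base of a match on the gene's strand. In both Cyp51 and Hsd17b7 the looser string had the letters TCACCTCA, at -88 in Cyp51 and at -117 in Hsd17b7. In Sc5d it read TCACATCA at -52, with a reversed CCAAT box at -24. Both kinds of string were present in Hsd17b7 as well as in the other 3 genes printed. The looser one had been chosen after reading these windows, so no conclusion is drawn from its presence.

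Values are log2 signals after robust multi-array averaging (RMA), so a difference of 1 is a doubling. Levels of different genes cannot be compared on this scale, since each probe set has its own brightness. The arrays read RNA of whole cultures, in which fewer cells with a transcript and less of it per cell cannot be told apart. Over all genes tested, mimic 3 and inhibitor 1 lay at the ends of the first principal component (scores of -20.5 and 20.9, with the controls between -4.38 and -2.78), which held 60.5% of the variance. Results are therefore also given without these arrays. On the same component mimic 1 scored -9.15 and mimic 2 scored -3.95, the latter within the range of the controls. The deposited arrays also differed in their spread of values. The 75th percentile over all probe sets was lowest on mimic 3 (5.55) and highest on inhibitor 1 (5.76), with the controls between 5.64 and 5.65. All 6 fibroblast markers, among them Col1a1 and Vim, passed the level filter, as did 7 of 14 markers of muscle, endothelium, epithelium and macrophages. The fibroblast markers had means of 6.94 to 11.2 and the 14 others of 3.46 to 4.89, with the filter at 3.86. Passing it does not show that a marker is expressed.

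The first comparison asked what supplying miR-378-3p does to the chain. With the mimic, transcripts stood below the controls along most of it. Fdft1, Sqle, Sc5d and Dhcr7 fell, Lss, Cyp51, Msmo1 and Nsdhl stood lower without passing the threshold, and Hsd17b7 had a log2 fold change near 0. In all, 4 of 9 members fell and 0 rose, where 2.45% of all genes tested fell and 1.1% rose (limma, adjusted p under 0.05). The members were chosen with earlier results of these data known, so the contrast with all genes is a description. All 3 mimic arrays lay below all 3 control arrays for 8 of the 9 members, which was so for 12.7% of all genes, and none lay above them, as 8.67% of all genes did. All 9 log2 fold changes were below 0, as were 52.8% of those of all genes. An unadjusted p under 0.05 was reached by 8 members, all but Hsd17b7, and by 15.9% of all genes (limma). The median log2 fold change of the members was -0.30, with a range of -0.41 to -0.01, and that of all genes was -0.01.

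**Figure D1:**
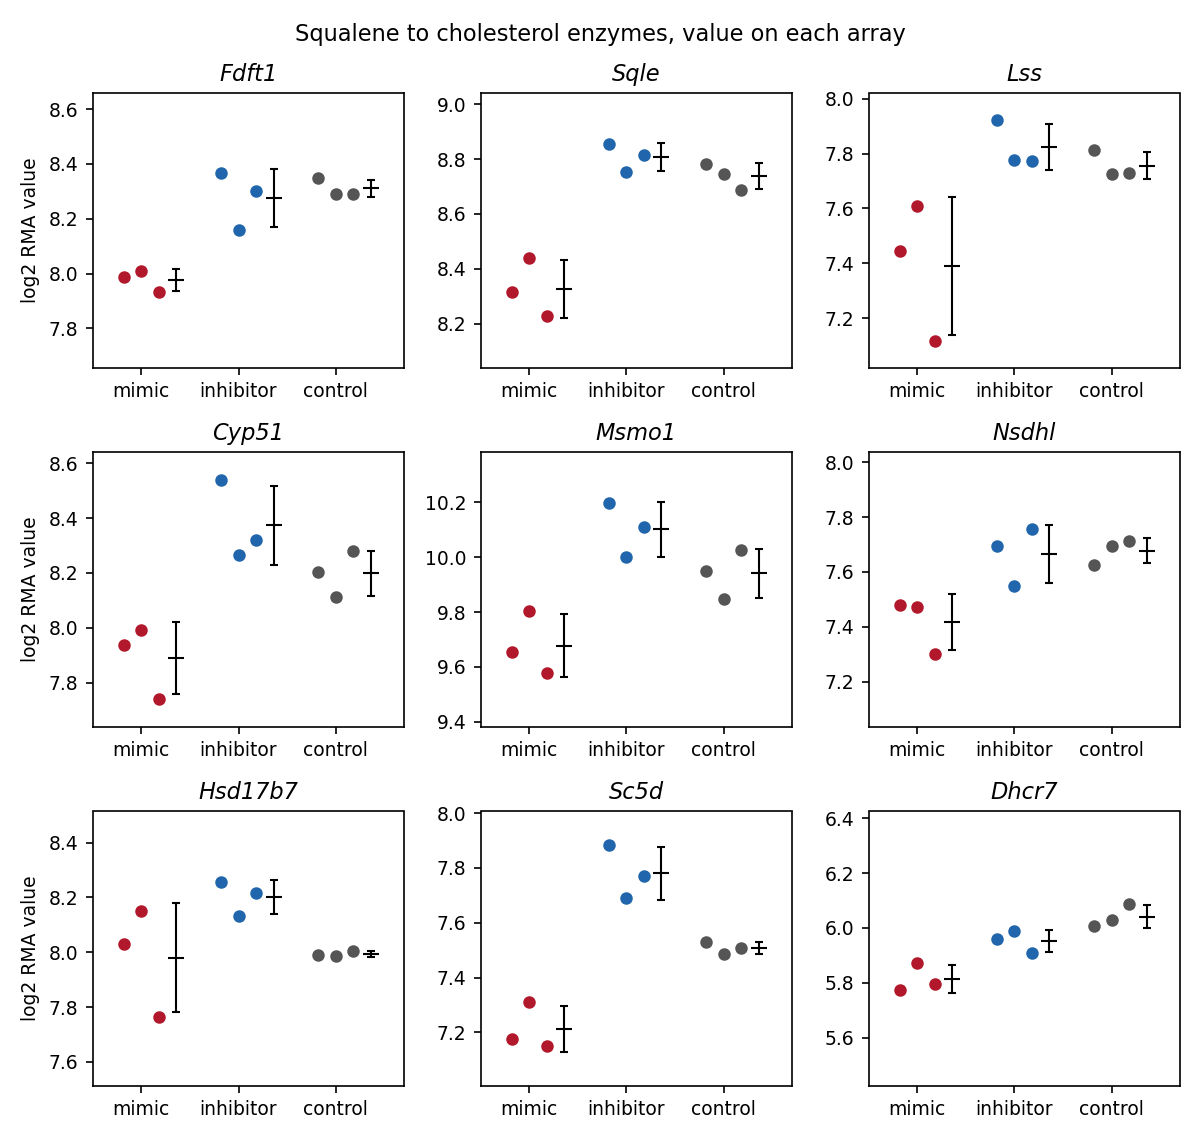
Log2 RMA value (vertical axis, each panel spanning 1 log2 unit) of each enzyme on each array, with mimic arrays in red, inhibitor arrays in blue and control arrays in grey, replicates 1 to 3 from left to right; bars give the mean and SD (n = 3). In 8 of the 9 panels, all but Hsd17b7, the mimic points lie below all control points.

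Fdft1, which makes squalene, opened the chain with values of 7.99, 8.01 and 7.93 in mimic cells, against 8.35, 8.29 and 8.29 in control cells. The groups did not overlap, and the gap was several times the spread within either. Fdft1 fell by 0.34 (log2 fold change -0.34, SE 0.06, 95% interval -0.47 to -0.20, limma, adjusted p = 0.0137). A further probe set of Fdft1 averaged 7.80 ± 0.13 in mimic cells and 8.24 ± 0.04 in control cells (SD, n = 3 each), a log2 fold change of -0.44 in the same direction.

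Sqle encodes squalene epoxidase, the oxygen-dependent step that is rate-limiting in the late pathway. Its values were 8.31, 8.44 and 8.23 in mimic cells, against 8.78, 8.74 and 8.69 in control cells. The highest mimic array still lay well below the lowest control array. Sqle had the most negative log2 fold change of the members, at -0.41 ± 0.06 (SE; 95% interval -0.55 to -0.28, limma, adjusted p = 0.00556), a level 0.752 times that of the controls. It was also the one member called in all 9 fits that left out a single array.

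Lss, lanosterol synthase, folds the epoxide into the sterol ring system. Mimic cells had 7.45, 7.61 and 7.12, against 7.81, 7.73 and 7.73 in control cells. The mimic arrays were spread more widely here than for any other member (SD 0.25 in mimic cells, 0.05 in control cells). The log2 fold change was -0.37 ± 0.10 (SE) and did not pass (limma, adjusted p = 0.0967). Without mimic 3 it was -0.23, and without mimic 2 it was -0.47 and passed (limma, adjusted p = 0.0202).

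Cyp51, the cytochrome P450 that demethylates lanosterol, stood at 7.94, 7.99 and 7.74 in mimic cells, against 8.20, 8.11 and 8.28 in control cells. Each mimic value was lower than each control value, with a log2 fold change of -0.31 (95% interval -0.50 to -0.12, limma, adjusted p = 0.0871). Msmo1, the oxidase that begins the removal of the remaining methyl groups, had 9.65, 9.80 and 9.58 in mimic cells, against 9.95, 9.85 and 10.03 in control cells. The nearest arrays of the groups were mimic 2 and control 2, and the log2 fold change of -0.26 (95% interval -0.43 to -0.10) did not pass (limma, adjusted p = 0.0950).

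Nsdhl, the dehydrogenase that acts after Msmo1, had 7.48, 7.47 and 7.30 in mimic cells, against 7.63, 7.69 and 7.71 in control cells. Its groups did not overlap either, and the log2 fold change was -0.26 (95% interval -0.41 to -0.11, limma, adjusted p = 0.0714). The ketoreductase gene Hsd17b7, which completes the same removal, was the exception. Its values of 8.03, 8.15 and 7.76 in mimic cells straddled the 7.99, 7.99 and 8.01 of control cells. The log2 fold change was -0.01 with an interval of -0.20 to 0.18 (limma, adjusted p = 0.961), which leaves room for a change of either sign, and without mimic 3 it was 0.10.

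Sc5d, the sterol desaturase near the end of the chain, had 7.18, 7.31 and 7.15 in mimic cells, against 7.53, 7.49 and 7.51 in control cells. It fell by 0.30 (SE 0.06, 95% interval -0.43 to -0.16, limma, adjusted p = 0.0295). Dhcr7, the reductase that yields cholesterol in one branch and the enzyme missing in Smith-Lemli-Opitz syndrome in humans, had 5.77, 5.87 and 5.80 in mimic cells, against 6.01, 6.03 and 6.09 in control cells. It fell by 0.23 (SE 0.05, 95% interval -0.34 to -0.12, limma, adjusted p = 0.0337), the smallest change among the members that passed.

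Mimic 3 was the lowest of all 9 arrays for 8 members, and mimic 2 was the highest mimic array for 8. The number of members that fell was 4 without mimic 3, 6 without mimic 3 and inhibitor 1, 6 without mimic 2, 2 without inhibitor 3, and 1 without mimic 1 or without control 1, 2 or 3, where it was Sqle alone (limma). After quantile normalization 7 of 9 fell, the additions being Lss, Cyp51 and Nsdhl, while the split over all genes moved to 335 rises and 439 falls, against 132 and 293 as deposited, and after median centring 2 of 9 fell.

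**Figure D2:**
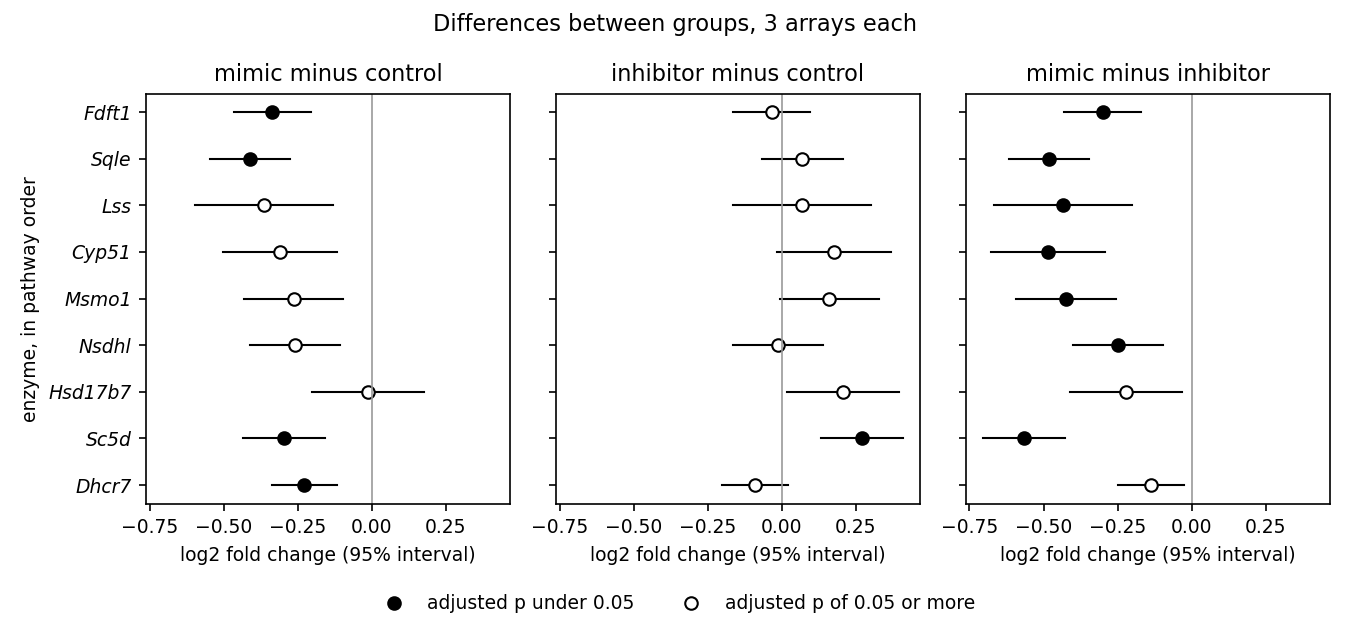
Log2 fold change of each enzyme in pathway order (points) with its 95% interval (lines) for mimic minus control, inhibitor minus control and mimic minus inhibitor; filled points have an adjusted p under 0.05 (limma). With the mimic 4 points are filled, all below 0, with the inhibitor Sc5d alone is filled, and between mimic and inhibitor 7 are filled, all below 0.

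The second comparison asked whether blocking miR-378-3p moves the chain the other way. With the inhibitor 1 of 9 members, Sc5d, rose and 0 fell, where 11.1% of all genes tested rose and 3.76% fell (limma), so the share of members called was near that of all genes. The groups did not overlap for 2 members that were higher, Hsd17b7 and Sc5d, and 1 that was lower, Dhcr7, where 24.9% of all genes were higher and 12.8% lower without overlap. Log2 fold changes were below 0 for 3 members, Fdft1, Nsdhl and Dhcr7, and for 45.8% of all genes. Hsd17b7 and Sc5d had an unadjusted p under 0.05, as did 28.8% of all genes (limma). The median log2 fold change of the members was 0.07, with a range of -0.09 to 0.27, and that of all genes was 0.01. Mimic and inhibitor are set against the same control arrays, so the values of both comparisons are not independent.

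Sc5d stood at 7.88, 7.69 and 7.77 in inhibitor cells, against 7.53, 7.49 and 7.51 in control cells. Every inhibitor array lay above every control array, and Sc5d rose by 0.27 ± 0.06 (SE; 95% interval 0.13 to 0.41, limma, adjusted p = 0.0160). It was the one member that passed in all 3 comparisons. The call was lost without inhibitor 1 (log2 fold change 0.22, limma, adjusted p = 0.0541), and the adjusted p was 0.0513 without inhibitor 3, 0.0623 without control 2 and 0.0581 without control 3 (limma).

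Hsd17b7 had 8.26, 8.13 and 8.21 in inhibitor cells, against 7.99, 7.99 and 8.01 in control cells. These groups did not overlap, yet the log2 fold change of 0.21 (95% interval 0.02 to 0.40) did not pass (limma, adjusted p = 0.134). It did so without mimic 3 (limma, adjusted p = 0.0144) and without mimic 3 and inhibitor 1 (log2 fold change 0.18, limma, adjusted p = 0.0339).

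Cyp51 had 8.54, 8.27 and 8.32 in inhibitor cells, against 8.20, 8.11 and 8.28 in control cells, and Msmo1 had 10.20, 10.00 and 10.11, against 9.95, 9.85 and 10.03. Both overlapped the controls, and their log2 fold changes of 0.18 and 0.16 came with intervals that reached below 0 (-0.02 to 0.37 and -0.01 to 0.33, limma, adjusted p = 0.213 and 0.194). Dhcr7 pointed down, with 5.96, 5.99 and 5.91 in inhibitor cells, against 6.01, 6.03 and 6.09 in control cells. Its groups did not overlap, and its log2 fold change of -0.09 (95% interval -0.20 to 0.02) did not pass (limma, adjusted p = 0.270), but it was -0.17 and passed after quantile normalization (limma, adjusted p = 0.0382).

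For the first 3 enzymes and Nsdhl the inhibitor arrays overlapped the controls. Log2 fold changes with the inhibitor were -0.03 for Fdft1 (95% interval -0.17 to 0.10), 0.07 for Sqle (-0.07 to 0.21), 0.07 for Lss (-0.16 to 0.30) and -0.01 for Nsdhl (-0.16 to 0.14), and limma's adjusted p was at least 0.514 for these 4.

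Mimic and inhibitor cells were also compared directly. All 9 members had a log2 fold change below 0, as 53.6% of all genes did, and 7 were lower in mimic cells and 0 higher, where 19.9% of all genes were lower and 6.91% higher (limma). All 9 had an unadjusted p under 0.05, as did 38.5% of all genes (limma). The groups did not overlap for 8 members, all of them lower with the mimic, against 25.7% of all genes in that direction and 12.9% in the other, and the median of the members was -0.42, against -0.02 over all genes. Sc5d differed most, with 7.18, 7.31 and 7.15 in mimic cells, against 7.88, 7.69 and 7.77 in inhibitor cells. Its log2 fold change was -0.57 ± 0.06 (SE; limma, adjusted p = 0.000185), a level 0.675 times that with the inhibitor. Cyp51 (-0.49), Sqle (-0.48), Lss (-0.43), Msmo1 (-0.42), Fdft1 (-0.30) and Nsdhl (-0.25) followed, with adjusted p of at most 0.0221 (limma). Hsd17b7 (-0.22, limma, adjusted p = 0.0800) and Dhcr7 (-0.14, adjusted p = 0.0650) did not pass.

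Between mimic and inhibitor the number of members called ran from 5, without inhibitor 1, to 9, without mimic 2, and was 6 without mimic 3 and inhibitor 1, where the median log2 fold change shrank to -0.25. Quantile normalization shrank that median to -0.31, against -0.42 as deposited. The calls of Nsdhl (adjusted p = 0.0681) and Lss (adjusted p = 0.0513) were those lost without inhibitor 1 (limma). Nsdhl was also lost without mimic 3 (limma, adjusted p = 0.0539) and without inhibitor 3 (adjusted p = 0.0886). After quantile normalization its log2 fold change was -0.13 and did not pass (limma, adjusted p = 0.0852), nor did it pass in the fit of the 6 arrays compared (adjusted p = 0.0604) or without mimic 3 and inhibitor 1 (-0.18, adjusted p = 0.0935). Dhcr7 was called as well after median centring (limma, adjusted p = 0.0470) and with no level filter (adjusted p = 0.0462).

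The enzymes varied together. Over the 36 pairs of members, Pearson's r across the 9 arrays had a median of 0.84 and ran from 0.19 for Hsd17b7 with Dhcr7 to 0.98 for Cyp51 with Msmo1. These r hold the differences between groups, so they were computed again on deviations from the group means. The median was then 0.68, with a range of -0.23 (Fdft1 with Dhcr7) to 0.95 (Lss with Hsd17b7). Cyp51, Msmo1 and Sc5d kept values of 0.84 to 0.91 among themselves. The mean of the members had an r of 0.89 with the first principal component of all genes tested. No pairwise r was computed for other sets of genes, so it is not known how far these medians are particular to the chain. The points are 9 arrays that share sample quality and the deposited normalization, and mimic 3 and inhibitor 1 carry much of the spread, so r is given as a description.

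**Figure D3:**
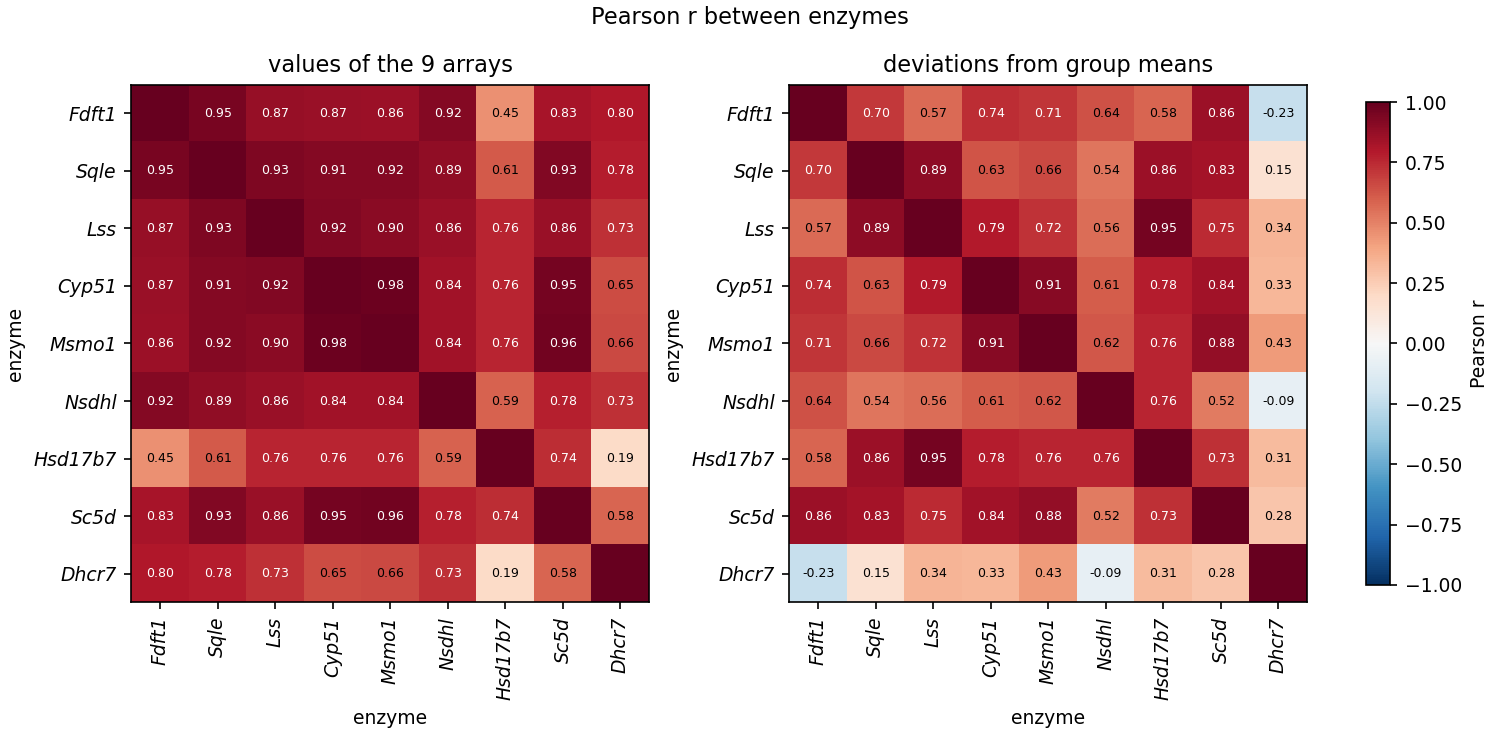
Pearson r (colour and printed value, from -1 to 1) between each pair of enzymes over the 9 arrays, on the values themselves (left) and on deviations from group means (right). Dhcr7 shows the weakest relations in the right panel, and Hsd17b7 stands apart from Fdft1 and Dhcr7 in the left panel (0.45 and 0.19).

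Against the mean of the other 8 members, r was over 0.88 for each member but Hsd17b7 (0.69) and Dhcr7 (0.70). Around the group means Hsd17b7 had an r of 0.95 with Lss and 0.86 with Sqle. Of all genes tested 5.13% had an r over 0.9 with the mean of the members, and the median r of all genes with it was 0.19. The 8 most alike outside the pathway lists, each with an r of at least 0.99, were Plekhb2, Ncapg, a condensin subunit, Elovl6, a fatty acid elongase, Anln, the cytokinesis protein anillin, the centrosomal kinase gene Nek2, the amino acid transporter gene Slc7a6, Trap1, a mitochondrial chaperone, and Cdca2, which brings a phosphatase to chromosomes. With the mimic their log2 fold changes ran from -0.58 (Ncapg) to -0.20 (Trap1), and 7 of the 8, all but Trap1 (limma, adjusted p = 0.0691), fell. Since these genes were chosen for following the members over the same arrays, their direction with the mimic is fixed by that choice.

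Genes around the chain were counted as lists. Of the 6 mevalonate enzymes tested, which make the farnesyl units that Fdft1 uses, 4 fell with the mimic, where 2.45% of all genes fell (limma). The list median was -0.38, against -0.01 over all genes. Idi1, the isopentenyl diphosphate isomerase, fell by 0.51, Mvk, mevalonate kinase, by 0.39, Hmgcs1, the synthase that feeds the pathway, by 0.38 and Fdps, farnesyl diphosphate synthase, by 0.37 (limma, adjusted p of at most 0.0238). With the inhibitor none of these 6 passed, where 11.1% of all genes rose and 3.76% fell (limma). An unadjusted p under 0.05 was reached by 1 of the 6 and by 28.8% of all genes (limma). The list median was -0.02, against 0.01 over all genes. Between mimic and inhibitor the same 4 were lower in mimic cells, as were 19.9% of all genes (limma). Idi1 had a log2 fold change of -0.64 there, Hmgcs1 of -0.46, Mvk of -0.39 and Fdps of -0.33. Whether the chain before and the chain after squalene differ in their response was not tested.

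Of 4 other late pathway genes tested, 0 passed with the mimic although all 4 had an unadjusted p under 0.05, as did 15.9% of all genes (limma). The list median was -0.22. These were the sterol reductase genes Tm7sf2 and Lbr, the isomerase gene Ebp and Erg28, a scaffold of the complex that removes methyl groups. With the inhibitor 0 passed and 2 had an unadjusted p under 0.05, as did 28.8% of all genes (limma). Lbr, which also anchors chromatin to the nuclear envelope, was lower in mimic than in inhibitor cells by a log2 fold change of -0.55 (limma, adjusted p = 0.00205). It was the 1 call of 4 there, a share near the 19.9% of all genes that were lower (limma).

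Among 6 genes of sterol control and uptake, Stard4, a sterol carrier, fell with the mimic (-0.39, limma, adjusted p = 0.00509), and Scap, the escort that senses sterol for the regulatory proteins, rose with the inhibitor (0.28, limma, adjusted p = 0.0163). Each was the 1 call of 6 in its comparison, where 2.45% of all genes fell with the mimic and 11.1% rose with the inhibitor (limma). Srebf2, which encodes the main regulator of the chain, had log2 fold changes of -0.18 with the mimic and 0.03 with the inhibitor, neither past the threshold (limma, adjusted p = 0.182 and 0.820), and it was lower in mimic than in inhibitor cells (-0.21, limma, adjusted p = 0.0329). Stard4 (-0.55) and Scap (-0.34) were lower there as well, so 3 of these 6 passed between mimic and inhibitor, where 19.9% of all genes were lower (limma). None of 3 genes of sterol efflux and its control, Abca1, Abcg1 and Mylip, passed in any comparison, and 0 had an unadjusted p under 0.05 (limma). Such a p was reached by 15.9% of all genes with the mimic, 28.8% with the inhibitor and 38.5% between them (limma).

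**Figure D4:**
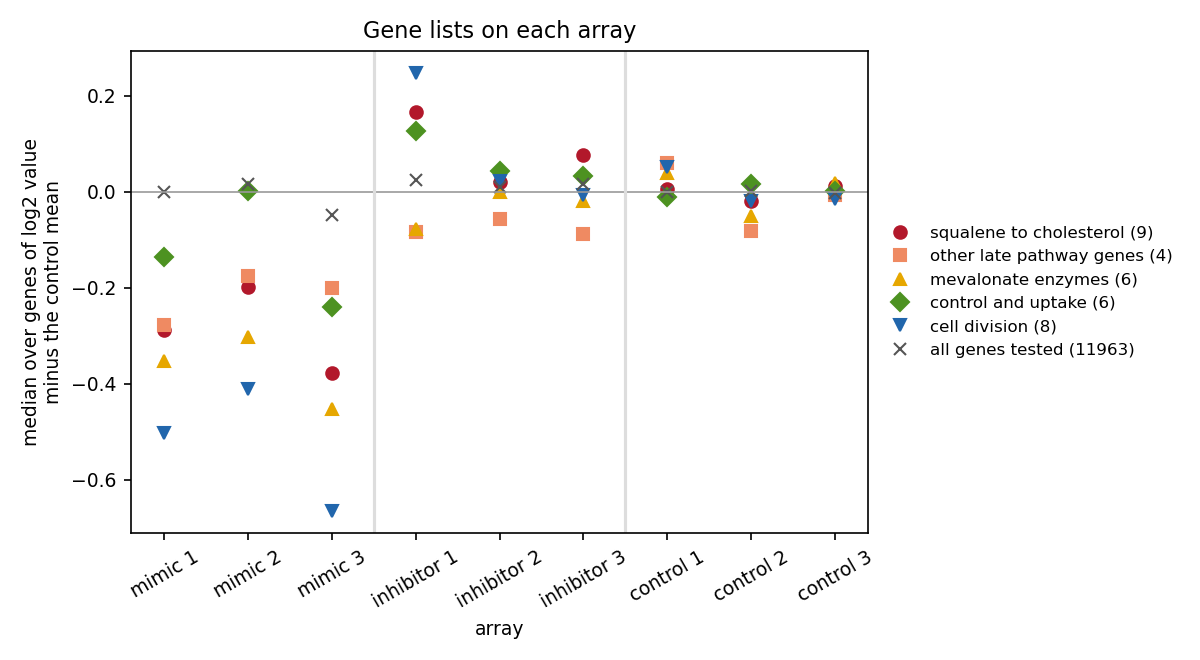
Median over the genes of each list (number of genes in the legend) of the log2 value minus the control mean, on each of the 9 arrays. The squalene to cholesterol enzymes lie at -0.29, -0.20 and -0.38 on mimic 1, 2 and 3 and between 0.02 and 0.17 on the inhibitor arrays. The cell division genes, listed for moving with the mimic in an earlier analysis, lie below them on each mimic array.

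Cell division genes are set beside the members on the same arrays. They were listed because they moved with the mimic in an earlier analysis, so their direction with it is fixed by that choice. Of 8 such genes 7 fell with the mimic, all but Top2a, with a median log2 fold change of -0.52, where 2.45% of all genes fell (limma). With the inhibitor 3 rose, namely Mcm3, Mcm5 and Mcm6, where 11.1% of all genes rose (limma). The log2 fold changes of the 7 with the mimic ran from -0.63 for Mki67, a proliferation marker, to -0.41 for Mcm6, a subunit of the replicative helicase. All 8 were lower in mimic than in inhibitor cells, as were 19.9% of all genes (limma). Their median against the control mean was -0.50, -0.41 and -0.66 on mimic 1, 2 and 3, 0.25, 0.02 and -0.01 on inhibitor 1, 2 and 3, and between -0.02 and 0.05 on the controls. The members followed with -0.29, -0.20 and -0.38 on the mimic arrays, 0.17, 0.02 and 0.08 on the inhibitor arrays, and between -0.02 and 0.01 on the controls. In both lists mimic 3 was lowest and inhibitor 1 highest, as it was for the median of all genes tested (-0.05 and 0.02). The part that cell division or these 2 arrays have in the values of the members was not tested.

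Some markers of cell type were called. Thy1, a fibroblast surface protein, rose with the mimic (log2 fold change 0.38, limma, adjusted p = 0.00823). It was the 1 call of 6 fibroblast markers there, where 1.1% of all genes rose (limma). Col3a1, a fibrillar collagen, fell with the inhibitor (-0.22, limma, adjusted p = 0.0427), again 1 of 6, where 3.76% of all genes fell. Between mimic and inhibitor 3 of 6 were higher in mimic cells, namely Col3a1 (0.32), S100a4 (0.23) and Thy1 (0.22), with adjusted p of at most 0.0494 (limma). Of all genes 6.91% were higher there (limma). Col1a1, Col1a2 and Vim were called in no comparison. The summed log2 values of the 6 lay between 59.90 and 60.36 on mimic arrays, 59.23 and 59.70 on inhibitor arrays and 59.81 and 59.99 on control arrays. Of the other 7 markers tested, the skeletal muscle actin gene Acta1 was called, higher in mimic than in inhibitor cells (0.28, limma, adjusted p = 0.0242), and none was called against the controls. Cd68 and Acta1 had an unadjusted p under 0.05 with the mimic, as did 15.9% of all genes (limma). With the inhibitor 0 of the 7 had one, against 28.8% of all genes (limma). The part of these markers in the values of the members was not tested.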

How the data were processed

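RNA of 9 NIH-3T3 samples was measured on whole-transcript arrays. The deposited table holds log2 signals, 1 for each probe set on each array, between 2.64 and 12.5. Per the submitters' processing notes the tools were Partek 6.5 and RMA, whose output is log2 by convention. A genome build is not given in the sources read. Of 28853 probe sets, 21789 were paired with 1 gene, 1621 with several and 5443 with none. The probe set with the highest mean stood for a gene (999 of 19938 genes had several), and genes were tested if their mean reached the 40th percentile of gene means (3.86). Some genes of the lists, Por, Acat2 and Nr1h2 among them, are not reported here, and Nr1h3 lay below the filter.

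All 9 arrays entered a single model with a term for each group (limma 3.58.1, functions lmFit and eBayes, under R 4.3.3). It had 6 residual degrees of freedom, 4.37 prior ones and a median SD, after moderation by eBayes, of 0.08. P-values are two-sided and adjusted by Benjamini-Hochberg over the 11963 genes of a comparison, and a gene is called at an adjusted p under 0.05. The fit was also run on simulated data. There the noise was independent for each gene, without shifts shared by the genes of an array. That run therefore does not vouch for the calls made here. The number of arrays limits the precision. No pair of arrays had over 3.58% of values exactly equal as deposited.

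Members and lists were chosen with earlier results of these data known. Named by rule are all members, called genes of the 4 sterol lists (up to 4 a list and comparison) and the 8 genes most like the mean of the members. Marker and cell division genes were named after their values were seen. Alternatives were other level filters, 2 scalings (quantile and median), a block for the replicate number, a variance trend in eBayes, averaged probe sets, only the 6 arrays compared, and fits without 1 or 2 arrays. Plots and the motif search used Python 3.11.15 with matplotlib 3.10.9.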

Additional observations from a re-analysis of the deposited data

How the results depend on the processing

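With the mimic, Sqle and Fdft1 kept their calls under the level filters, both scalings, fits of 6 arrays, the replicate block, a variance trend in eBayes, averaged probe sets and the fit without mimic 3 and inhibitor 1, and of these 2 only Sqle kept it in every fit without a single array. The number of members called with the mimic was 7 after quantile normalization and 2 after median centring. Dhcr7 was also lost in the fit of 6 arrays (adjusted p = 0.0684) and with a variance trend (adjusted p = 0.0809, limma), which left 3 members each. Between mimic and inhibitor 6 members were called after quantile normalization, in the fit of 6 arrays and without mimic 3 and inhibitor 1, and 8 after median centring and with no level filter, against 7. The replicate number as a block also gave 2 members, Fdft1 and Sqle, where the adjusted p was 0.0635 for Sc5d and 0.0724 for Dhcr7 (limma). With the inhibitor 2 members were called after quantile normalization (1 rise and 1 fall), in the fit of 6 arrays and without mimic 3 and inhibitor 1. Over all genes the mimic comparison gave 774 calls after quantile normalization, 231 after median centring, 248 in the fit of 6 arrays and 911 without mimic 3 and inhibitor 1, against 425. Quantile normalization gave 1269 rises and 1022 falls with the inhibitor, against 1330 and 450, and 1670 and 2029 between mimic and inhibitor, against 827 and 2377.

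Leaving out single arrays gave 1 to 6 members with the mimic, 0 to 2 with the inhibitor and 5 to 9 between them, and 133 to 582, 974 to 2790 and 2310 to 3669 calls over all genes. Signs turned only where no call was made. For Hsd17b7 with the mimic the log2 fold change was 0.0163 after quantile normalization and 0.10 without mimic 3 and inhibitor 1, and from -0.10 to 0.10 without single arrays. With the inhibitor it was -0.0206 for Lss after quantile normalization and 0.0097 for Nsdhl after median centring, and without single arrays it ran from -0.08 to 0.0238 for Fdft1 and from -0.0565 to 0.0462 for Nsdhl. The causes were not tested. Same-numbered arrays deviated from their group means with correlations of -0.589 to 0.224, and 6 of 18 best matches across groups shared a number. With 3 arrays to a group this cannot settle whether equal numbers mark a pairing.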
